A study of Rattus norvegicus with 6 samples.

Results

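The genes described here are 10 neuropeptide genes outside the opioid family, Tac1, Tac3, Sst, Npy, Cck, Vip, Nts, Cartpt, Crh and Trh, chosen by symbol from the 32883 genes counted. Each was followed across nuclei of the nucleus accumbens shell, the ventromedial division of the ventral striatum, in adult Long-Evans rats. Nuclei were sorted into classes with other marker genes, so that no peptide gene took part in forming or naming a class. The study held 6 single-nucleus RNA libraries, 3 from females and 3 from males, each a pool of shell tissue from 4 animals, or 24 animals in all, aged 90 to 100 days. The labels name no treatment and no genetic change, and the comparison between groups was female against male. Because each pool mixes 4 animals, the spread between libraries is a spread between pools. A strain entry was present only in the labels of male pool 1 and female pool 3, here called label set A, and absent in those of the other 4 pools, label set B.

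Neuropeptides are made as longer precursors, cut by convertases in the secretory pathway, stored in dense-core vesicles and released to act mostly on G protein-coupled receptors. In the striatum the medium spiny neurons, the GABAergic output neurons, are split by dopamine receptor: those with Drd1 are known for substance P (from Tac1) and dynorphin, and those with Drd2 for enkephalin. Somatostatin and neuropeptide Y are known from a sparse class of interneurons with nitric oxide synthase, while neurotensin and CART (from Cartpt) are known from subsets of shell output neurons.

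Cyclic AMP and immediate-early transcription factors act on peptide promoters through short motifs, the cyclic AMP response element and the AP-1 site. The promoters of Nts, Tac1 and Cartpt are printed because these genes were together at high levels in the cluster of nuclei with immediate-early genes described below. They are RefSeq sequences on GRCr8, the 250 bases before the annotated start, read along the gene's own strand, at chr7:39460889-39461138 (minus strand) for Nts, chr4:36645333-36645582 (plus strand) for Tac1 and chr2:32991236-32991485 (minus strand) for Cartpt. Capitals mark each match to TGACGTCA (the full element), TGACG or CGTCA (its shorter form on either strand, contained in the full one) or TGANTCA (AP-1). Of the 10 genes, 7 had a promoter in the RefSeq table, and Tac3, Cck and Crh were not in it.
Nts: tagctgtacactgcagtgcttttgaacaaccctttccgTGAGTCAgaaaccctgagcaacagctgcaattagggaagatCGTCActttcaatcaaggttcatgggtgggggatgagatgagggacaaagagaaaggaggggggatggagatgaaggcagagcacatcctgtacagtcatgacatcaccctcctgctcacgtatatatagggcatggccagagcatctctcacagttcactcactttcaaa
Tac1: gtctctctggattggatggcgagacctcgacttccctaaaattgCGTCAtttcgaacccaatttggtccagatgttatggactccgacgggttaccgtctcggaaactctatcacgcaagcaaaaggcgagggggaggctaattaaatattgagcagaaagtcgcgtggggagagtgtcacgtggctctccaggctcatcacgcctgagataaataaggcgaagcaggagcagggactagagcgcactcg
Cartpt: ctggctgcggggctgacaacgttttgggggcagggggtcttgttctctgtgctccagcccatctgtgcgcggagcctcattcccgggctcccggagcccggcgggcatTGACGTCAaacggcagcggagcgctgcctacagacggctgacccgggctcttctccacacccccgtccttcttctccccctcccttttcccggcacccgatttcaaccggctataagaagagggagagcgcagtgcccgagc
Counted back from -1, the base before the start, Nts held TGAGTCA at -212 to -206 and CGTCA from -171, Tac1 held CGTCA from -206, and Cartpt held TGACGTCA at -142 to -135. Vip held TGACG from -97 and Trh held CGTCA from -74, and Sst and Npy held none of these letters in this window. The window was set by the annotated start and nothing outside it was searched. An absence here therefore does not mean that a gene lacks the element. Among 33469 promoters of the same length, 1.59% held the full element, 18.2% the shorter form and 6.34% the AP-1 site. A match is a run of letters and not evidence of binding.

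The files held 41974 barcodes with 238905895 UMIs (unique molecular identifiers, 1 per captured RNA molecule). Of these, 34218 nuclei with 186016460 UMIs were kept, from 2762 to 14291 per library, with median depths of 3059 to 4811.5 UMIs per nucleus. Barcodes failing the 5% limit on mitochondrial UMIs made up 1.55 to 2.28% of label set A and 13.1 to 40.7% of label set B. Libraries shared 3 to 52 barcodes pairwise, at most 0.645% of the smaller library. In all, 26965 nuclei (78.8%) fell in 20 classes named from markers, 4657 (13.6%) in 11 numbered clusters and 2596 (7.59%) in clusters with genes of several cell types. The D1 class is a D1-like class by cluster and not by receptor in each nucleus: of 5035 D1 MSN-like nuclei, 561 had a Drd1 UMI and no Drd2 UMI, 225 had only Drd2 and 4225 had neither. Of 3534 D2 MSN-like nuclei, 3217 had a Drd2 UMI and no Drd1 UMI.

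Levels are given as CPM, the gene's UMIs per 1000000 UMIs of a class in a library, or as UMIs per 100 nuclei. Pool values are always listed as female pools 1, 2 and 3 and then male pools 1, 2 and 3. Over all kept nuclei the files held 28715 UMIs of Tac1, 9973 of Cartpt, 8953 of Nts, 6623 of Sst, 3798 of Cck, 2195 of Tac3, 387 of Vip, 235 of Trh, 191 of Crh and 9 of Npy. The first 6 genes had over 2000 UMIs each, while Vip, Trh, Crh and Npy could be placed only in their main classes.

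Tac1, Sst, Nts and Cartpt were also counted in glia, which are not known as sources of these peptides, and that level was taken as the background. In oligodendrocyte-like nuclei (median 1713 UMIs) Tac1 was at 27.2, 62.6, 11.1, 19.1, 51.9 and 42.0 UMIs per 100 nuclei and Sst at 22.1, 23.1, 4.37, 6.21, 24.3 and 18.4. Both genes were lowest in the glia of the 2 pools of label set A. Tac1 in astrocyte-like nuclei (median 2114 UMIs) was at 0.582 to 1.01 times the oligodendrocyte-like level of the same pool, so the 2 glial classes were close within each library while the libraries differed several-fold. Endothelial or mural-like nuclei, which are not glia, were left out of this background and were higher. Their Tac1 was at 1.18 to 2.94 times the oligodendrocyte-like level over 5 pools. Sst was at 0.325 to 0.811 UMIs per Tac1 UMI in oligodendrocyte-like nuclei and 0.383 to 0.787 in astrocyte-like nuclei over the 6 pools. The proportion was wider in precursor (OPC-like) nuclei, at 0.25 to 1.55, and in Microglia-like nuclei, at 0.2 to 1, so it was not the same in every glial class. The highest OPC-like value was in female pool 3, where 48 Sst UMIs came from 16 nuclei and Sst was at 3.04 times the oligodendrocyte-like level. Scaled per nucleus, edgeR's quasi-likelihood test called 0 of the 6 genes tested different between astrocyte-like and oligodendrocyte-like nuclei at an adjusted p under 0.05, while it called 57.6% of all genes tested. Between OPC-like and oligodendrocyte-like nuclei it also called 0 of 6, against 55.2% of all genes tested. On the CPM scale, which divides by the class's total, it called 3 of 6 lower in astrocyte-like nuclei, against 29.4% of all genes tested called lower.

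**Figure D1:**
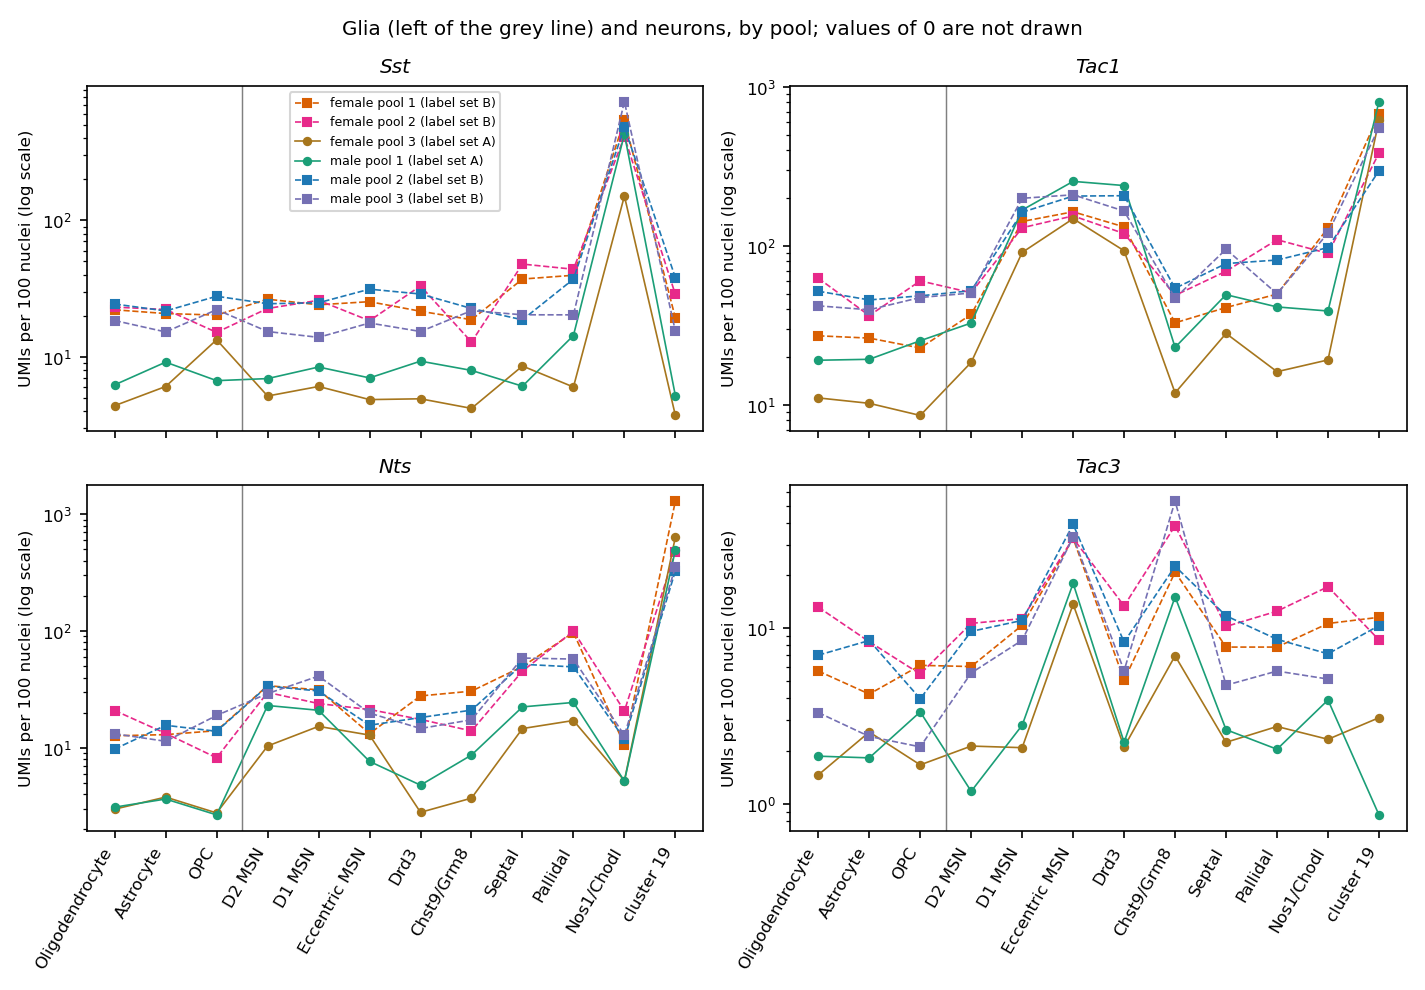
UMIs of Sst, Tac1, Nts and Tac3 per 100 nuclei (y axes, log scale) in 3 glial classes, left of the grey line, and in neuronal classes (x axis), with points of 1 pool joined by a line and the label set shown by marker and line. The glial points shift from pool to pool (Tac1 in oligodendrocyte-like nuclei from 11.1 to 62.6), and Sst in the OPC-like nuclei of female pool 3 (13.3) stands above the oligodendrocyte-like point of that pool (4.37), while Sst in Nos1/Chodl interneuron-like nuclei starts at 151.

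Against this background Sst stood in D1 MSN-like nuclei at 0.753 to 1.38 times and in D2 MSN-like nuclei at 0.831 to 1.20 times the oligodendrocyte-like level per nucleus, which is read as background. Scaled per nucleus, 4 of 7 genes tested (Tac1, Nts, Cartpt and Tac3) were called higher in D1 MSN-like than in oligodendrocyte-like nuclei, against 85.3% of all genes tested called higher. D1 MSN-like nuclei had a median of 5470 UMIs, so most genes were higher per nucleus. In D2 MSN-like nuclei 2 of 6 (Cartpt, log2 difference 1.67, SE 0.31, and Nts, 1.60, SE 0.23, edgeR adjusted p = 0.00021 and 2.4e-05) were called higher, against 84.7%. Tac1 in D2 MSN-like nuclei differed from oligodendrocyte-like nuclei by 0.33 (SE 0.16, edgeR adjusted p = 0.059) and was at 0.811 to 1.71 times their level, so Tac1 there was not separated from the background. On the CPM scale 0 of 7 genes were called higher in D1 MSN-like nuclei and 3 lower, against 32.1% and 34.4% of all genes tested, so the direction for spiny neurons against glia depends on the scale.

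Tac1, the precursor of substance P and neurokinin A, was spread over several neuron classes. In cluster 19, a set of 420 nuclei with the immediate-early genes Npas4, Fosb, Fosl2, Nr4a3 and Arc among its leading genes, it was at 673, 383, 616, 807, 297 and 554 UMIs per 100 nuclei, and 64.5% of nuclei had a Tac1 UMI (95% Wilson interval 59.8 to 69.0%). Every pool of cluster 19 lay above every pool of the D1 MSN-like class, which was at 142, 130, 91.0, 168, 163 and 199. On the CPM scale cluster 19 also came first, at 772 ± 204 (SD, n = 6), with pool values of 669, 749, 927, 853, 435 and 1001. Cluster 19 was also deep, with a median of 6988 UMIs against 5470 in D1 MSN-like nuclei. It held 9.22% of all Tac1 UMIs in 1.23% of the nuclei, while the D1 MSN-like class held 24.4%.

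Cluster 11 had too few markers of any list to be named and is not read as a cell type here. Below cluster 19 and cluster 11 (258 ± 85.9 UMIs per 100 nuclei, SD, n = 6), Tac1 was at 189 ± 41.2 in eccentric MSN-like nuclei (a spiny class marked by Otof and Casz1), 159 ± 55.6 in Drd3 neuron-like nuclei and 149 ± 37.0 in D1 MSN-like nuclei (all SD, n = 6). Over pools these 3 named classes overlapped, at 148 to 255, 93.2 to 240 and 91.0 to 199. Pools are shared between classes, and the classes were not tested within pools. Among nuclei with neither a Drd1 nor a Drd2 UMI, the eccentric class was above the D1 class in every pool. There it was at 139, 153, 141, 229, 216 and 214, against 137, 127, 85.5, 155, 150 and 177. Drd3 neuron-like nuclei had a median of only 2738 UMIs, and on the CPM scale they were the highest named class, at 493 ± 151 against 341 ± 89.2 in eccentric MSN-like nuclei (SD, n = 6). A Tac1 UMI was present in 61.6% of D1 MSN-like nuclei, and in 34.9% after each nucleus was thinned to 2000 UMIs. Relative to oligodendrocyte-like nuclei of the same pool, D1 MSN-like nuclei were at 2.08 to 8.80 times the level, eccentric MSN-like nuclei at 2.47 to 13.4 times and Drd3 neuron-like nuclei at 1.91 to 12.6 times.

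**Figure D2:**
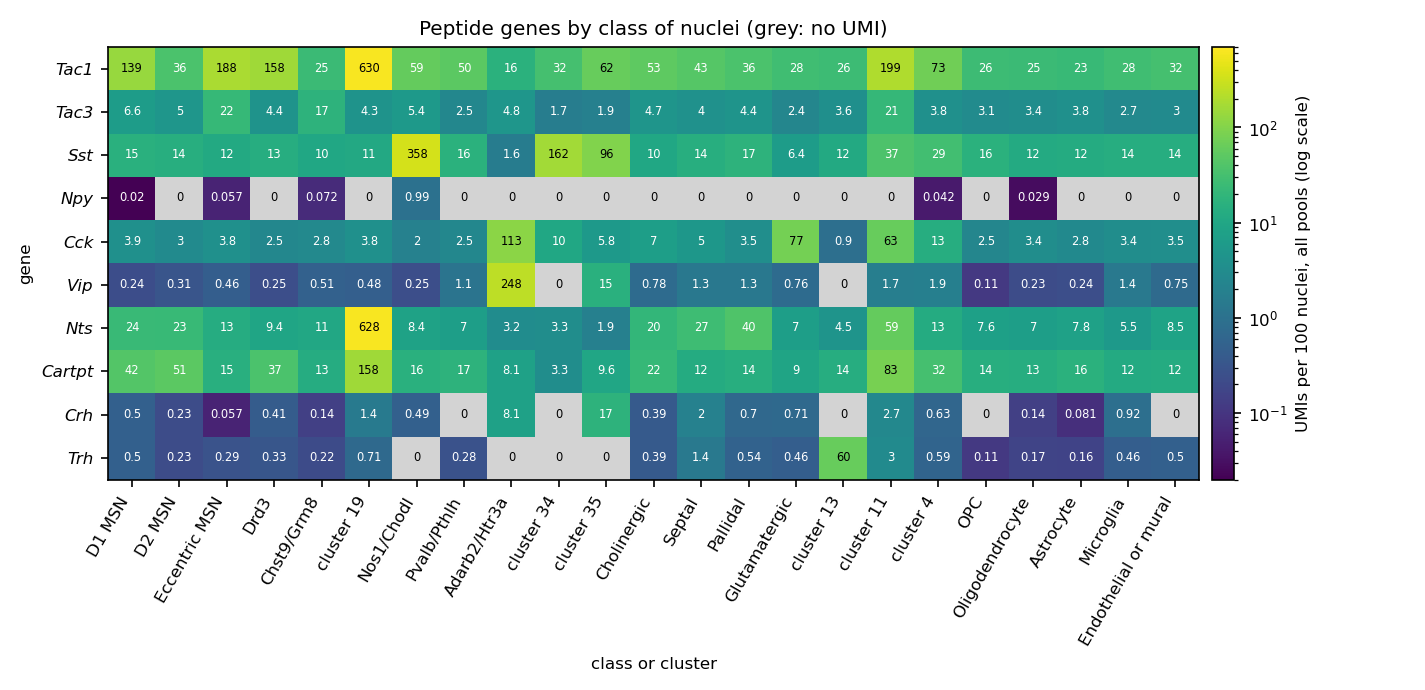
UMIs per 100 nuclei (colour, log scale, and number in each cell) of the 10 genes (rows) in classes and clusters of nuclei (columns), over all pools together, with grey for no UMI. Tac1 and Nts are highest in cluster 19, Sst in Nos1/Chodl interneuron-like nuclei, Vip in Adarb2/Htr3a interneuron-like nuclei and Trh in cluster 13.

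Tac3, the precursor of neurokinin B, was sparse and spread over many classes. Of its 2195 UMIs, eccentric MSN-like nuclei held 17.4%, D1 MSN-like nuclei 15.1%, cluster 11 11.3% and Chst9/Grm8 neuron-like nuclei 10.8%. Counting only the 54 nuclei with at least 3 Tac3 UMIs, 24 were in cluster 11, 14 in the eccentric and 9 in the Chst9/Grm8 class. Eccentric MSN-like nuclei were at 32.5, 32.5, 13.7, 18, 39.1 and 33.1 UMIs per 100 nuclei, and 17.1% of them had a UMI. Chst9/Grm8 neuron-like nuclei, a class marked by Chst9, Grm8 and the mu opioid receptor gene, were at 20.9, 38.4, 6.96, 15.1, 22.6 and 53.0. The 2 classes overlapped over pools, at 28.2 ± 9.94 and 26.2 ± 16.8 (SD, n = 6), and cluster 11 was at 25.4 ± 12.5. Both classes were above oligodendrocyte-like nuclei in each of the 6 pools, by 2.47 to 10.0 times in the eccentric and 2.91 to 16.1 times in the Chst9/Grm8 class. On the CPM scale the Chst9/Grm8 class came first, at 37.8, 123, 18.6, 26.2, 55.1 and 152, and both pools of label set A were at its lower end. In D1 MSN-like nuclei Tac3 was at 0.860 to 2.59 times the oligodendrocyte-like level.

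Sst, the precursor of somatostatin, was concentrated in Nos1/Chodl interneuron-like nuclei. There it was at 540.4, 410.3, 151, 429, 483 and 741 UMIs per 100 nuclei, the lowest value in female pool 3 and the highest in male pool 3. Of the 406 nuclei of this class 82.5% had an Sst UMI (95% Wilson interval 78.5 to 85.9%), against 10.4% of oligodendrocyte-like nuclei, at median depths of 4382 and 1713 UMIs. The level was 17.8 to 69.0 times that of oligodendrocyte-like nuclei of the same pool, and even the lowest pool lay above every pool of the other classes fitted. The class still held only 22.0% of all Sst UMIs, because low counts were spread over the many nuclei of the other classes. Counting only nuclei with at least 3 Sst UMIs, 174 of 321 (54.2%) were in this class. Smaller sets with Satb1 and Crhbp among their leading genes also held Sst. Cluster 34 was at 162 per 100 nuclei, from 43 nuclei of female pool 3, 16 of male pool 1 and 1 of male pool 3, and cluster 35 at 96.2, from 38 nuclei of female pool 3 and 14 of male pool 1.

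Npy, the precursor of neuropeptide Y, was nearly absent from the counts. Only 9 UMIs were found in all 34218 nuclei. Of these, 4 were in Nos1/Chodl interneuron-like nuclei, 1 in each of 4 of its 406 nuclei (0.985%, 95% Wilson interval 0.384 to 2.51%), and 1 each in the D1 MSN-like, eccentric MSN-like, Chst9/Grm8 neuron-like and oligodendrocyte-like classes and in cluster 4. Its mean level in Nos1/Chodl interneuron-like nuclei was 1.96 ± 2.77 CPM (SD, n = 6), with counts too few for an order of classes. With so few UMIs Npy could not be compared between classes or sexes. The low count says nothing of the transcript in the cells, which was not measured another way here. The same class had Sst at 1014 ± 570 CPM (SD, n = 6), and why Npy was so low was not tested.

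Nts, the precursor of neurotensin, was concentrated in cluster 19, of which it was the first leading gene although it took no part in the clustering. It was at 1298, 477, 639, 496, 328 and 354 UMIs per 100 nuclei there, 22.9 to 214 times the oligodendrocyte-like level of the same pool, which was 12.7, 20.9, 2.99, 3.11, 9.77 and 13.2. Female pool 1 stood highest, and in CPM the 3 female pools (1290, 934 and 962) were all above the 3 male pools (524, 481 and 639). Cluster 19 held 29.5% of all Nts UMIs, 56.4% of its nuclei had a Nts UMI, and 172 of its nuclei had at least 3.

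Below cluster 19 came cluster 11 (83.5 ± 53.4 UMIs per 100 nuclei), pallidal neuron-like nuclei (57.6 ± 35.1) and septal neuron-like nuclei (40.5 ± 17.7, all SD, n = 6), which overlapped between pools. Pallidal and septal names stand for marker sets of neighbouring regions that the dissected tissue could hold. Scaled per nucleus, Nts was above the oligodendrocyte-like level by a log2 difference of 2.53 (SE 0.18) in the pallidal class and 2.16 (SE 0.19) in the septal class. Both classes are singled out here for their high Nts, so these differences are a description and no p is given. In the same fits 91.2% and 88.6% of all genes tested were called higher. D1 MSN-like nuclei (27.2 ± 9.13) and D2 MSN-like nuclei (26.7 ± 8.95) had nearly equal means, with 93 and 58 nuclei holding at least 3 Nts UMIs. Nuclei with several Nts UMIs thus occurred in both spiny classes. Endothelial or mural-like nuclei, of which 1 in 398 held at least 3, were at 17.3 ± 14.7 UMIs per 100 nuclei (SD, n = 5). In CPM they were at 68.4 ± 57.1 (SD, n = 5), against 46.1 ± 21.9 in D1 and 47.0 ± 22.0 in D2 MSN-like nuclei (SD, n = 6). On that scale Nts in the spiny classes was thus not clear of every class of non-neuronal nuclei.

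Cartpt, the precursor of the CART peptides, was present in both spiny classes at similar levels. D2 MSN-like nuclei were at 55.5, 63.2, 26.2, 59.2, 66.4 and 66.7 UMIs per 100 nuclei, with a UMI in 33.7% of nuclei. D1 MSN-like nuclei were at 41.6, 53.6, 19, 44.1, 57.9 and 59.2, with a UMI in 28.0%, so that the D2 class was above the D1 class in every pool. Cluster 19 was higher than both in every pool, at 177, 106, 125, 193, 138 and 265, and 58.1% of its nuclei had a UMI. Oligodendrocyte-like nuclei were at 18.4, 71.4, 4.01, 9.78, 25.8 and 18.4, so in female pool 2 the glial level exceeded that of both spiny classes. In the other 5 pools the spiny classes were above it.

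On the CPM scale Cartpt was highest in cluster 4, at 244, 219, 64.9, 198, 435 and 526, followed by cluster 19 at 243 ± 116 (SD, n = 6). Cluster 4 held 2370 shallow nuclei (median 1426 UMIs) with weak oligodendrocyte genes, and 1754 of them came from male pool 1. Per 100 nuclei it was at only 35.6 ± 16.0, below both spiny classes, so its place in the order depends on the scale. It was neither named nor read as a cell type.

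Cck, the precursor of cholecystokinin, and Vip, that of vasoactive intestinal peptide, were found mainly in label set A. That set held nearly all glutamatergic neuron-like and Adarb2/Htr3a interneuron-like nuclei. Cluster 11 had nuclei in both sets, with Cck at 91.1 UMIs per 100 nuclei in set A (785 nuclei) and 2.42 in set B (372 nuclei). Of 1961 glutamatergic neuron-like nuclei, 1959 came from set A. They held 39.9% of all Cck UMIs, 41.9% of them had a Cck UMI (95% Wilson interval 39.8 to 44.1%), and the level was 61.3 UMIs per 100 nuclei in female pool 3 and 139 in male pool 1. Cck in oligodendrocyte-like nuclei followed the same split, at 5.5 per 100 nuclei in set A and 0.549 in set B. Cluster 11 had too few markers of any list to be named. AY172581.24 came first among its leading genes, then Hba-a1, Cck and Cfl1, with Calm2, Atp6v1f and Ubb further down. Cck in cluster 11 was at 5.05, 4.35, 91.9, 89.2, 0 and 1.38 UMIs per 100 nuclei. Its mean of 56.5 ± 82.6 CPM (SD, n = 6) thus rested on 2 pools, in which it was 160.0, and the mean in septal neuron-like nuclei, 6.02 ± 4.31 CPM, was below that in oligodendrocyte-like nuclei, 10.2 ± 13 CPM (SD, n = 6).

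Vip and Cck met in Adarb2/Htr3a interneuron-like nuclei, a class of 62 nuclei, 47 from female pool 3, 14 from male pool 1 and 1 from female pool 2. Of the 387 Vip UMIs, 154 (39.8%) were in these nuclei, 54.8% of which had a Vip UMI (95% Wilson interval 42.5 to 66.6%), against 0.230% of oligodendrocyte-like nuclei. The level was 191 UMIs per 100 nuclei in female pool 3 and 429 in male pool 1. Of the same nuclei 45.2% had a Cck UMI, with 153 CPM in female pool 3 and 373 in male pool 1. Among 27 nuclei with at least 2 Vip UMIs, 10 (37.0%) had at least 2 of Cck, against 32.3% of the class. With nuclei of this class in 3 pools, and 1 nucleus in 1 of them, no comparison between the sexes was made.

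Crh, the precursor of corticotropin-releasing hormone, had 191 UMIs, which were thinly spread. Septal neuron-like nuclei held 38 of them (19.9%), at 3.42, 4.55, 0.813, 2.64, 2.94 and 4.05 per 100 nuclei, and cluster 11 held 31. The highest levels were in small sets mostly of label set A, at 17.3 UMIs per 100 nuclei in cluster 35 (9 UMIs in 4 of 52 nuclei; 7.69%, 95% Wilson interval 3.03 to 18.2%) and 8.06 in Adarb2/Htr3a interneuron-like nuclei (5 UMIs in 3 of 62 nuclei), which few UMIs support. Oligodendrocyte-like nuclei had 5 UMIs in 3475 nuclei, or 0.144 per 100 nuclei. OPC-like nuclei had none in 894, which allows a share of up to 0.336% of nuclei with a UMI. Microglia-like nuclei had 4 UMIs in 437 nuclei, or 0.915 per 100 nuclei, at a median of 1327 UMIs. In CPM they were level with septal neuron-like nuclei, at 5.72 ± 8.45 against 5.62 ± 3.68 (SD, n = 6). On that scale septal Crh was thus not clear of every glial class.

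Trh, the precursor of thyrotropin-releasing hormone, was concentrated in cluster 13, a set of 111 nuclei whose leading genes were Trh itself, Chrna3 and Tph2. Cluster 13 held 67 of the 235 UMIs (28.5%), and 32.4% of its nuclei had one (95% Wilson interval 24.4 to 41.6%). Its levels were 69.2, 180.0, 11.1, 28.0, 43.8 and 217 UMIs per 100 nuclei, from 13, 15, 36, 25, 16 and 6 nuclei, so the highest pool rests on 6 nuclei. The 2 pools of label set A were the lowest, at 18 together against 112 in set B. Oligodendrocyte-like nuclei were at 0.173.

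Within a pool the D1 and D2 spiny classes share library and free RNA, so their difference is less exposed to the background than either level. edgeR's quasi-likelihood test with the library as a block called 2032 of 13663 genes (14.9%) at an adjusted p under 0.05, 1107 higher (8.1%) and 925 lower (6.77%) in D1 MSN-like nuclei. Of the 10 peptide genes 6 had enough counts, and 1 was higher and 1 lower. Their median log2 difference was 0.14, beside -0.00 over all genes tested.

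Tac1 was at 177, 319, 161, 182, 251 and 396 CPM in D1 MSN-like nuclei and at 49.2, 130, 33.6, 35.9, 83.7 and 109 in D2 MSN-like nuclei. The classes did not overlap, and the D1 class was higher in 6 of 6 pools, by a log2 difference of 1.86 (SE 0.07, edgeR adjusted p = 8e-24). Cartpt went the other way, at 51.7, 131, 33.5, 47.8, 89.4 and 118 CPM in the D1 class and 73.6, 162, 47.4, 64.9, 106 and 143 in the D2 class. It was lower in the D1 class in 6 of 6 pools, by a log2 difference of -0.39 (SE 0.05, edgeR adjusted p = 1.2e-07), although the ranges over pools overlapped. Nts differed by -0.03 (95% interval -0.20 to 0.14, edgeR adjusted p = 0.89). That value depends on how nuclei were grouped: with a finer clustering Nts differed by 0.31 (adjusted p = 0.057) and with likely doublets kept by 0.75 (adjusted p = 1.4e-05), both higher in D1. Tac3 (0.27, adjusted p = 0.23), Cck (0.34, adjusted p = 0.28) and Sst (0.003, adjusted p = 0.99) did not pass edgeR's test.

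**Figure D3:**
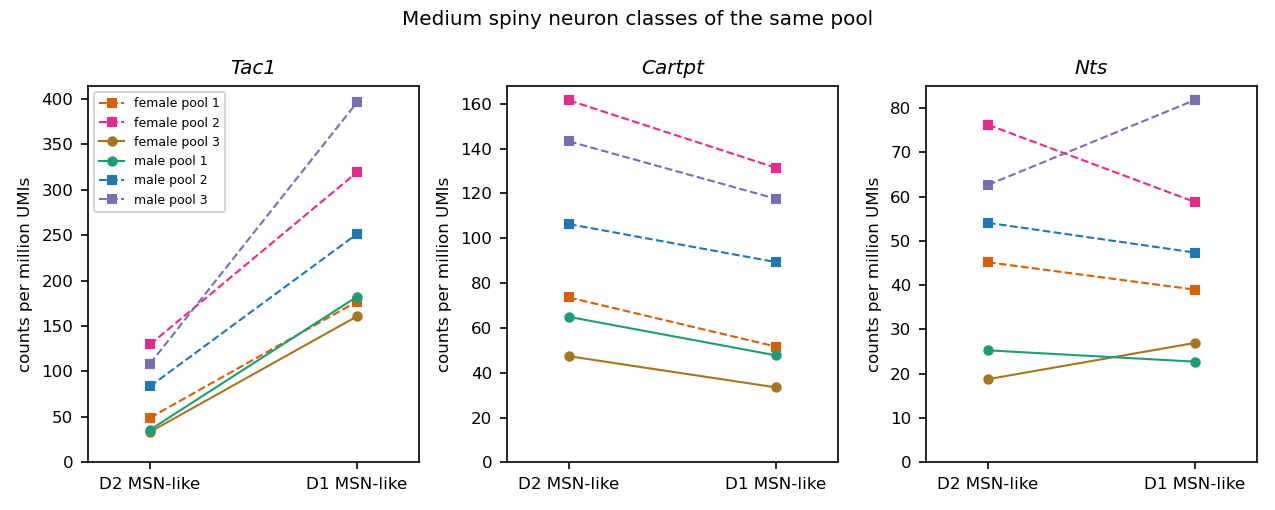
CPM (y axes, from 0) of Tac1, Cartpt and Nts in D2 MSN-like and D1 MSN-like nuclei, with a line joining the 2 classes of each of the 6 pools and the label set shown by marker and line. The 6 Tac1 lines rise from D2 (33.6 to 130) to D1 (161 to 396), and the 6 Cartpt lines fall.

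The genes that process, store and sense peptides were compared in the same fit. Of 22 genes for processing and release, 21 were tested, 5 were higher and 5 lower in D1 MSN-like nuclei (median -0.03). Sorcs1 (log2 difference 0.44) and Sorcs3 (0.42), sorting receptors of the Vps10 family, were higher, while Chga (-0.59), the granule protein chromogranin A, and Pcsk2 (-0.12), the prohormone convertase 2, were lower. Of 23 listed genes for receptors and proteins that bind or degrade the peptides, 13 were tested, 4 were higher and 2 lower (median 0.22). The somatostatin receptor gene Sstr4 (1.62), the neuropeptide Y receptor gene Npy5r (1.06) and Trhde (0.50), the enzyme that degrades thyrotropin-releasing hormone, were higher, and the corticotropin-releasing hormone receptor gene Crhr1 was lower (-1.37). Of the opioid peptide genes 2 of 4 were tested, with Pdyn higher (2.34) and Penk lower (-2.71). Of 26 other peptide genes 4 were tested and Prok2, the prokineticin 2 gene, was higher (1.07, edgeR adjusted p = 0.014).

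Between the 2 main interneuron classes, Nos1/Chodl and Pvalb/Pthlh, edgeR called 1528 of 5826 genes (26.2%), 667 higher (11.4%) and 861 lower (14.8%) in Nos1/Chodl interneuron-like nuclei. Of the 3 peptide genes with enough counts, Sst alone was called. It was at 879, 1282, 332, 609.9, 1015 and 1966 CPM in the Nos1/Chodl class and 30.8, 49.8, 33.1, 3.52, 68.8 and 9.59 in the Pvalb/Pthlh class, with no overlap and a log2 difference of 4.51 (SE 0.30, edgeR adjusted p = 5.3e-10). Tac1 differed by 0.35 (SE 0.32, edgeR adjusted p = 0.47) and Cartpt by -0.03 (adjusted p = 0.97). Tac1 passed with a finer clustering (1.05, adjusted p = 0.00019) and without female pool 3 (0.88, adjusted p = 0.017). It split by label set: on the log2(CPM + 1) scale the Nos1/Chodl minus Pvalb/Pthlh value of Tac1 was -1.15 and -0.47 in the 2 pools of set A and 1.39, 1.48, 1.10 and 2.45 in the 4 of set B, a split that was not tested. The Pvalb/Pthlh class, joined from clusters 28, 29, 30 and 32, also differed in make-up between the sets. Female pool 3 and male pool 1 gave 71 and 30 of 107 nuclei in cluster 28 and 79 and 22 of 102 in cluster 29. In cluster 32 each gave 1 of 62. The part of this make-up in the Tac1 split was not tested. Within the Nos1/Chodl class, 34 of 241 nuclei (14.1%) with at least 2 Sst UMIs had at least 2 of Tac1, against 11.3% of the class.

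In the same comparison 20 of 22 processing genes were tested, 8 were higher and 4 lower (median -0.01). Chgb (1.03), the granule protein secretogranin 1, and Sorcs1 (0.93) were higher, and Cadps (-0.89), which primes dense-core vesicles, and Pcsk1 (-2.46), the prohormone convertase 1, were lower. Of the receptor list 3 genes were tested, and Tacr1, the substance P receptor gene, was higher (5.82), while Trhde (-1.95) and Crhbp (-1.15, edgeR adjusted p = 0.041), which encodes a protein that binds corticotropin-releasing hormone, were lower. Pnoc, the nociceptin precursor gene, was higher (4.27).

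Cluster 19 held nuclei with UMIs of either dopamine receptor, which allows the peptides to be read by receptor within it. Of its 420 nuclei, 173 had a Drd2 UMI and no Drd1 UMI, 35 had only Drd1 and 202 had neither. Tac1 was at 127 UMIs per 100 nuclei in those with Drd2, 1180 in those with Drd1 and 954 in those with neither. In every pool the Drd2 nuclei (19, 133, 123, 206, 27.3 and 75.0) were below the nuclei with neither receptor (915, 483, 934, 1437, 573 and 591). Nts, by contrast, was at 561, 794 and 651 in the same order, and Cartpt at 177, 211 and 137, so both were present on either side of the split, although Nts in the nuclei with neither receptor spanned 54.5 (male pool 3) to 1400.0 (female pool 1). The opioid genes divided with Tac1 or against it: Penk was at 895 in the Drd2 nuclei and 62.9 in the Drd1 nuclei, and Pdyn at 11.0 and 91.4. Nuclei of a pool are not replicates, and no test was made.

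**Figure D4:**
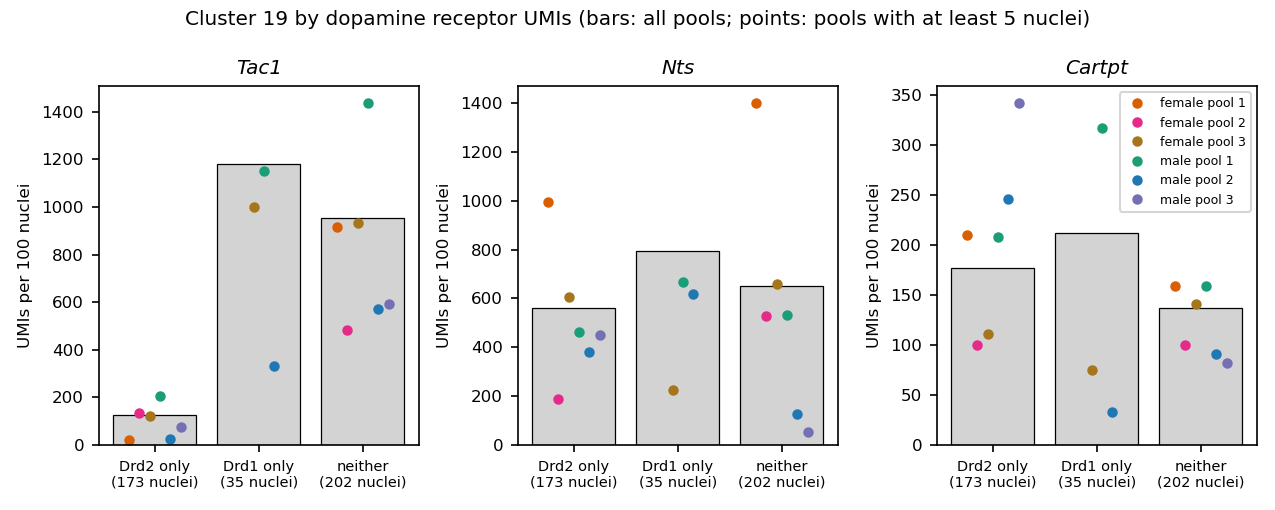
UMIs of Tac1, Nts and Cartpt per 100 nuclei of cluster 19 (y axes), split by dopamine receptor UMIs, with a bar for all pools together and a point for each pool with at least 5 nuclei. Tac1 is low in nuclei with a Drd2 UMI and no Drd1 UMI (19 to 206) and high in those with neither (483 to 1437), while Nts and Cartpt overlap between the 3 sets.

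Counts of 2 peptide genes in the same nucleus were also set side by side. In the D1 MSN-like class 139 of 219 nuclei with at least 2 Nts UMIs (63.5%, 95% Wilson interval 56.9 to 69.6%) also had at least 2 of Tac1, against 34.2% of the class. In the D2 MSN-like class 50 of 146 Nts nuclei (34.2%) had at least 2 Cartpt UMIs, against 10.5% of the class, and 16 (11.0%) had at least 2 of Tac1, against 5.94%. In cluster 19 the Nts nuclei did not stand apart from the class in this way: 99 of 199 (49.7%) had Tac1, against 52.4%, and 79 (39.7%) had Cartpt, against 34%. Deep nuclei hold more UMIs of every gene, and the part of depth in these shares was not tested.

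Females and males were compared in each class with at least 20 nuclei in every pool, with the label set as a term in the fit. Over all nuclei edgeR called 7 of 16700 genes (0.0419%) and 0 of the 9 peptide genes tested, with 0 of them at an unadjusted p under 0.05, and DESeq2 also called 0 with 0 at an unadjusted p under 0.05. Tac1 differed by -0.40 (female minus male log2, SE 0.24, adjusted p = 0.66), Nts by 0.25 (SE 0.16, adjusted p = 0.68) and Vip by 0.57 (SE 0.57, adjusted p = 0.76). In bulk sums of this kind fewer cells of a class and less RNA per cell cannot be told apart. Over the 15 classes 71 such tests of peptide genes were made and 3 were called. Of these, 1 was in cluster 19 and 2 in cluster 4, where 0.214% and 0.67% of all genes tested were called.

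In cluster 19, where 14 of 6532 genes (0.214%) were called, Nts was higher in females by a log2 difference of 1.06 (SE 0.22, edgeR adjusted p = 0.048). Within label set A female pool 3 was at 962 CPM and male pool 1 at 524, and within set B the female pools were at 1290 and 934 and the male pools at 481 and 639, so females were higher within both sets. Tac1 (0.14, adjusted p = 0.96) and Cartpt (-0.43, adjusted p = 0.84) did not pass in the same cluster. The Nts call did not hold without female pool 1 (adjusted p = 0.18), male pool 2 (0.89) or male pool 3 (0.25), or without the label set as a term (0.73), and in each of these fits the difference kept its sign. In the cluster 19 nuclei with neither receptor Nts was at 1400.0, 529 and 658 UMIs per 100 nuclei in the female pools and 533, 127 and 54.5 in the male pools, and in those with Drd2 alone at 995, 189 and 605 against 461, 382 and 450.0, so the sexes overlapped in both sets. The share of cluster 19 nuclei with a Nts UMI after thinning to 2000 UMIs was 54.1 ± 7.66% in females and 41.6 ± 11.8% in males (SD, n = 3 each; exact 2-sided permutation p = 0.3, where 0.1 is the smallest that 3 against 3 allows).

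**Figure D5:**
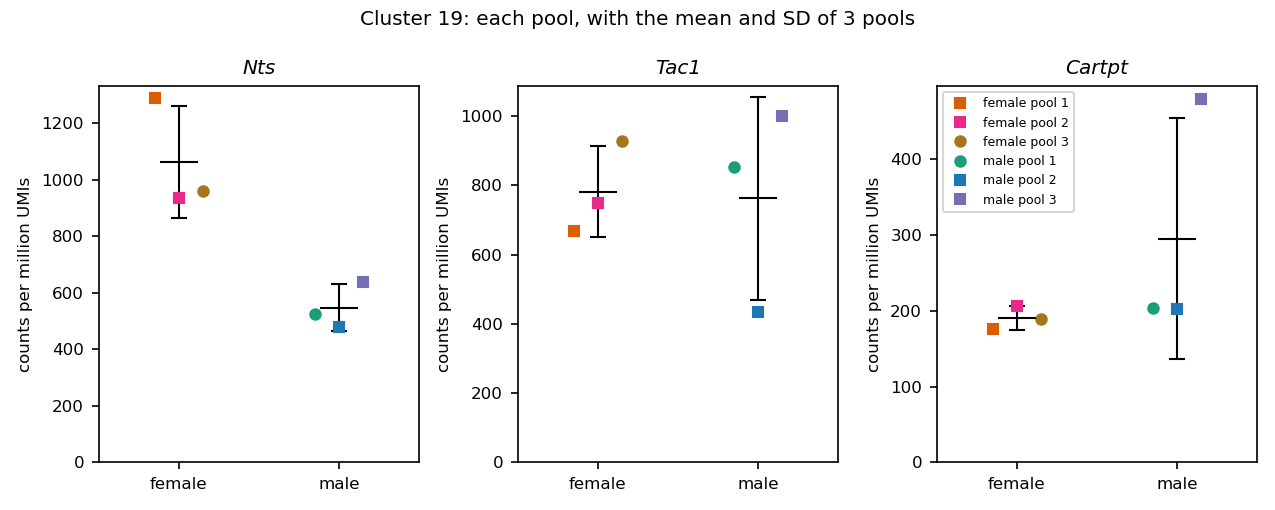
CPM (y axes, from 0) of Nts, Tac1 and Cartpt in cluster 19 for each of the 3 female and 3 male pools, with the mean and SD of each group in black and the label set shown by the marker. The Nts points of the female pools (934 to 1290) lie above those of the male pools (481 to 639), while the Tac1 and Cartpt points of the sexes overlap.

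In cluster 4, where 24 of 3583 genes (0.67%) were called, Tac1 was lower in females by a log2 difference of -1.32 (SE 0.30, edgeR adjusted p = 0.014) and Cartpt by -1.31 (SE 0.34, adjusted p = 0.047). Tac1 was at 348, 423 and 162 CPM in the female pools and 475, 744 and 894 in the male pools, which do not overlap. This cluster made up 21.5% of the nuclei of male pool 1 and 1.77 to 3.49% of those of the other pools, and its part in the result was not tested. Both calls were lost when nuclei under 1000 UMIs were left out (adjusted p = 0.099 and 0.24). Both were also lost without female pool 1 (0.069 and 0.081), female pool 3 (0.52 and 0.6), male pool 1 (0.52 and 0.61) or male pool 3 (0.17 and 0.24), and that of Cartpt without female pool 2 (0.11). Counted over all alternative fits, 8 lost the Tac1 call and 3 kept it, while 9 lost the Cartpt call and 2 kept it. In the fits that left out 1 pool the difference stayed between -1.48 and -1.09 for Tac1 and between -1.49 and -1.03 for Cartpt. Sst in Nos1/Chodl interneuron-like nuclei differed by -0.64 (SE 0.25, edgeR adjusted p = 1, with 0.118% of genes called in that class), and its female pools (879, 1282 and 332 CPM) overlapped the male pools (609.9, 1015 and 1966). Of 392 tests of processing, receptor, opioid and other peptide genes in the 15 classes edgeR called 0, with 30 at an unadjusted p under 0.05, and DESeq2 called 0 with 18. The lowest adjusted p was that of Cadps2, a vesicle priming gene, in Nos1/Chodl interneuron-like nuclei (1.69, adjusted p = 0.083).

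For each gene the 3 genes with the most similar levels over 28 classes were taken by Pearson's r of log2(CPM + 1), a description over classes that share libraries and depth. Nts was most like Cartpt (r = 0.876), Penk (0.863) and Gsto1 (0.846), and Tac1 most like Cartpt (0.849), Tomm20 (0.833) and Arpc1a (0.809). Cartpt in turn was most like Tomm20 (0.916), a mitochondrial import receptor gene, Gsto1 (0.893) and Rpl36a (0.888), a ribosomal protein gene. Cck had Ccn3 (0.740) and Slc17a7 (0.709), the vesicular glutamate transporter 1 gene, as its nearest genes, then Rab6a (0.683). Tac3 was most like Aimp1 (0.856), Exosc4 (0.831) and Yeats4 (0.829), and Sst most like H1f4 (0.755), Ostc (0.754) and Pex13 (0.727). The sparse genes had lower values: Trh with Polr2g (0.762), Psmd6 (0.730) and Gatd3a (0.706), Vip with Rbak (0.691), Mtmr9 (0.623) and Pwwp2b (0.619), Crh with Dmac1 (0.633), Mul1 (0.628) and Cited2 (0.591), and Npy, which rests on 9 UMIs, with Igfbpl1 (0.585), Ly6h (0.582) and Rpp30 (0.579).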

How the data were processed

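The authors deposited UMI counts per gene and nucleus for each of the 6 libraries, made with Cell Ranger 4.0.0 per the file headers on the rn6 build per the submitters' processing notes. Barcodes with at least 500 UMIs, 300 genes and under 5% mitochondrial UMIs were kept, and those with the highest Scrublet doublet scores were removed (0.8% per 1000 barcodes). Nuclei were clustered in scanpy 1.11.5 (3000 variable genes, 30 components, 20 neighbours, leidenalg 0.10.2 at resolution 1) without the peptide, processing, receptor, sex-linked and mitochondrial genes, and clusters were named from marker lists. The members, lists and markers were chosen with earlier results of these data known, and the splitting of 1 cluster and the naming details followed from its values. Counts were summed per library and class and tested with edgeR 4.0.16 (quasi-likelihood, TMM, Benjamini-Hochberg over all genes tested, threshold 0.05), with the library as a block between classes and the label set as a term between sexes. DESeq2 1.42.0 was an alternative, and the edgeR test was checked on simulated counts. Scaling per nucleus was chosen after seeing the data. All 10 peptide genes are named. From the other lists up to 4 called genes with the smallest p are named, or up to 2 where none was called, and for each peptide gene the 3 most similar genes. The labels do not say whether libraries of a sex were prepared separately, so p-values measure the spread between these pools. Intervals on shares cover counting error only.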

Additional observations from a re-analysis of the deposited data

Results flagged for a closer look

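Crh, the corticotropin-releasing hormone gene, differed in sign between the sexes in the D1 against D2 comparison of spiny neurons. On the log2(CPM + 1) scale the D1 minus D2 value was -0.128, -0.094 and -0.400 in the 3 female pools and 0.190, 0.852 and 2.36 in the 3 male pools, a female minus male difference of -1.34 between the means. Every female pool was below 0 and every male pool above it. The difference was not tested, and it rests on 25 UMIs in D1 MSN-like nuclei and 8 in D2 MSN-like nuclei over all pools. Male pool 3 held 11 of the 25 and none of the 8, and without it the female minus male difference was -0.729.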

How the results depend on the processing

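Tac1 higher and Cartpt lower in D1 MSN-like nuclei, and Sst higher in Nos1/Chodl interneuron-like nuclei, kept direction and call under every alternative run. Genes called between D1 and D2 fell from 2032 to 1179 with DESeq2. Calls summed over the 16 fits by sex were 140, and 592 with no filter on low counts, 85 with sex alone and 103 to 428 on leaving out 1 pool each (428 when female pool 1 was left out, 285 for female pool 3, 249 for male pool 1 and 223 for male pool 2). The cause was not tested.

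Fitted with the replicate number as a block, the same fits gave 59 calls, and the Nts call in cluster 19 (adjusted p = 0.96) and the Tac1 and Cartpt calls in cluster 4 (0.84 each) were lost. The numbers do not pair the pools: deviations of same-numbered pools correlated at -0.771, 0.259 and -0.634 over 16168 genes, and female pool 3 correlated best with male pool 1 (0.85).

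Differences near 0 changed sign. D1 against D2, with doublets kept, Tac3 was -0.017, Cck -0.064, Sst -0.075 and Nts 0.75, with a finer clustering Sst was -0.023 and Nts 0.31, and with DESeq2 Sst was -0.0063. Leaving out 1 pool gave -0.034 to 0.055 for Sst and -0.14 to 0.060 for Nts. Cartpt in Nos1/Chodl against Pvalb/Pthlh nuclei was 0.0040 at 1000 UMIs or more, 0.11 with doublets kept, 0.0027 with no filter and -0.28 to 0.26 on leaving out 1 pool. Female minus male shares changed sign for Tac1 in cluster 19 not thinned (-0.665 points; -2.92 to 2.45 on leaving out 1 pool), Tac3 in Chst9/Grm8 nuclei at 2 UMIs (0.335; -11.95 to 1.86) and Sst in Nos1/Chodl nuclei thinned to 1000 UMIs (0.191). In label set A alone Cck in cluster 11 was at 160.0 and Vip in cluster 4 at 10.9 CPM. Of the other values recomputed 213 stayed the same by a rule set for each kind of value. A log2 difference kept direction and call, a mean CPM stayed within the SD of its main value, and a difference in shares kept its sign. Another 22 log2 differences kept direction and lost their call, and 37 counts stayed within 1.5 times the main count. Cluster 4 had under 20 nuclei in some pools at the finer clustering and with doublets kept, and was not fitted there. Low counts limit what can be said of Npy, Crh, Trh and Vip, with 9 to 387 UMIs.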
